A study of Danio rerio with 6 samples.

Results

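The expression levels described here are those of the caudal fin of untrained wildtype zebrafish larvae at 10 days post fertilisation (dpf), read from the control channel of 6 Agilent arrays with 2 colours. A probe was kept where the scanner software marked its control signal as well above background on all 6 arrays, and genes were then ranked by their mean log2 signal. This held for 22248 of 43603 probes (51.0%) and for 8842 of the 12900 genes with a symbol (68.5%). Of the 8842 ranked genes, 486 carry placeholder names, which leaves 8356 with ordinary symbols. The control RNA came from 2 pools, named C2 and C3 in the labels, each extracted from the caudal fins of 15 untrained fish. The other channel of every array carried RNA of a pool of wildtype larvae of the same age. These larvae had swum from 5 to 10 dpf in sessions of 3 hours, and the values of their channel are not reported here. The deposited signals are dye-normalised, and whether that step drew on both channels of an array was not checked. Each pool was labelled from 100 ng of RNA in both dyes, Cy3 and Cy5, and C2 was hybridised again as a technical repeat, so that C2 lies on 4 arrays and C3 on 2. The labels do not say whether the pools came from separate clutches or days, and arrays of a pool share their RNA, so every SD below is over 2 pools and no p-value is given.

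The caudal fin of a zebrafish larva is a fold of epidermis over a sparse mesenchyme. It is stiffened by actinotrichia, unmineralised fibrils made of collagen and of the fish-specific actinodin proteins, and bony fin rays later form between its epidermal sheets. At its base lie the tip of the notochord, the cartilages that will carry the rays, trunk and fin muscle, the end of the spinal cord, vessels and pigment cells, and a dissected fin can hold some of each.

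Levels are log2 processed signals after each channel was set to a common 75th percentile, and a gene is represented by its brightest kept probe. They order probes, not transcript numbers, because probes bind with different strengths: among 4338 genes with more than 1 kept probe, the brightest and dimmest differed by a median of 1.89. Ranked genes ran from 5.95 to 19.13 with a median of 9.66, and the 100 highest held 48.1% of the summed linear signal. Probes just outside the rule, well above background on 5 arrays, had a median level of 6.49, against 9.02 for those inside it. Between 55.6% and 79.8% of probes were well above background per array, no spot was saturated, and over the kept probes arrays correlated at 0.975 to 0.994 within a pool and at 0.937 to 0.954 between pools. The Cy5 repeat array of C2 stood apart in the spread of its signals (75th percentile 1.81 above its median, against 2.25 to 2.35 on the other 5), and without it 8844 genes passed and 98 of the 100 highest-ranked genes were shared. Pools are called apart where a gene differed at least 2-fold the same way in both dye orientations, which held for 4.81% of ranked genes in favour of C3 and 3.18% in favour of C2.

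The top of the ranking was held by the machinery of protein synthesis. Of the 100 highest-ranked genes with ordinary symbols, 65 encode ribosomal proteins and 4 translation factors. The highest was rpsa, a protein of the small ribosomal subunit, at 19.06 in C2 and 19.20 in C3 (19.13 ± 0.10, SD, n = 2 pools). It was followed by eef1a1l1, the elongation factor that brings aminoacyl-tRNA to the ribosome, at 18.75 and 19.05. The small-subunit protein rps2 stood at 18.72 and 19.07. The gene rpsa was highest in both pools, whereas eef1a1l1 and rps2 reversed their order relative to each other. In C2 rpl8 lay above both of these, at 18.76. All 82 ribosomal protein genes on the array passed, at a median level of 17.77, and 81 of them lay in the top 10% of ranked genes. The exception was rps8b at 9.91 in C2 and 10.16 in C3, which lay far below the next member, rpl6, at 15.14 and 15.01. Among translation factors 49 of 50 passed, led by eef1a1l1, the ribosome translocase eef2b at 18.44 and 18.72, and tpt1, a growth-associated protein, at 18.14 and 18.73. The chaperone hsp90ab1 was the highest gene outside these lists, at 18.49 in C2 and 18.88 in C3.

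What else reached the top 100 came mainly from skin and muscle. Of its remaining 31 genes, 8 belong to the superficial epidermis list, 1 to the basal epidermis, 8 to fast muscle, 1 to slow muscle and 2 to fin mesenchyme. Another 3 are genes of the actin cytoskeleton and 2 are chaperones, which leaves 6 outside these lists. Those 6 are nme2b.1 and nme2b.2, which encode nucleoside diphosphate kinases, the mitochondrial ADP/ATP carrier slc25a5, the cold-inducible RNA-binding protein genes cirbpa and cirbpb, and the histone gene hist1h2a3. The plot of list levels sets each list against the whole ranking.

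**Figure D1:**
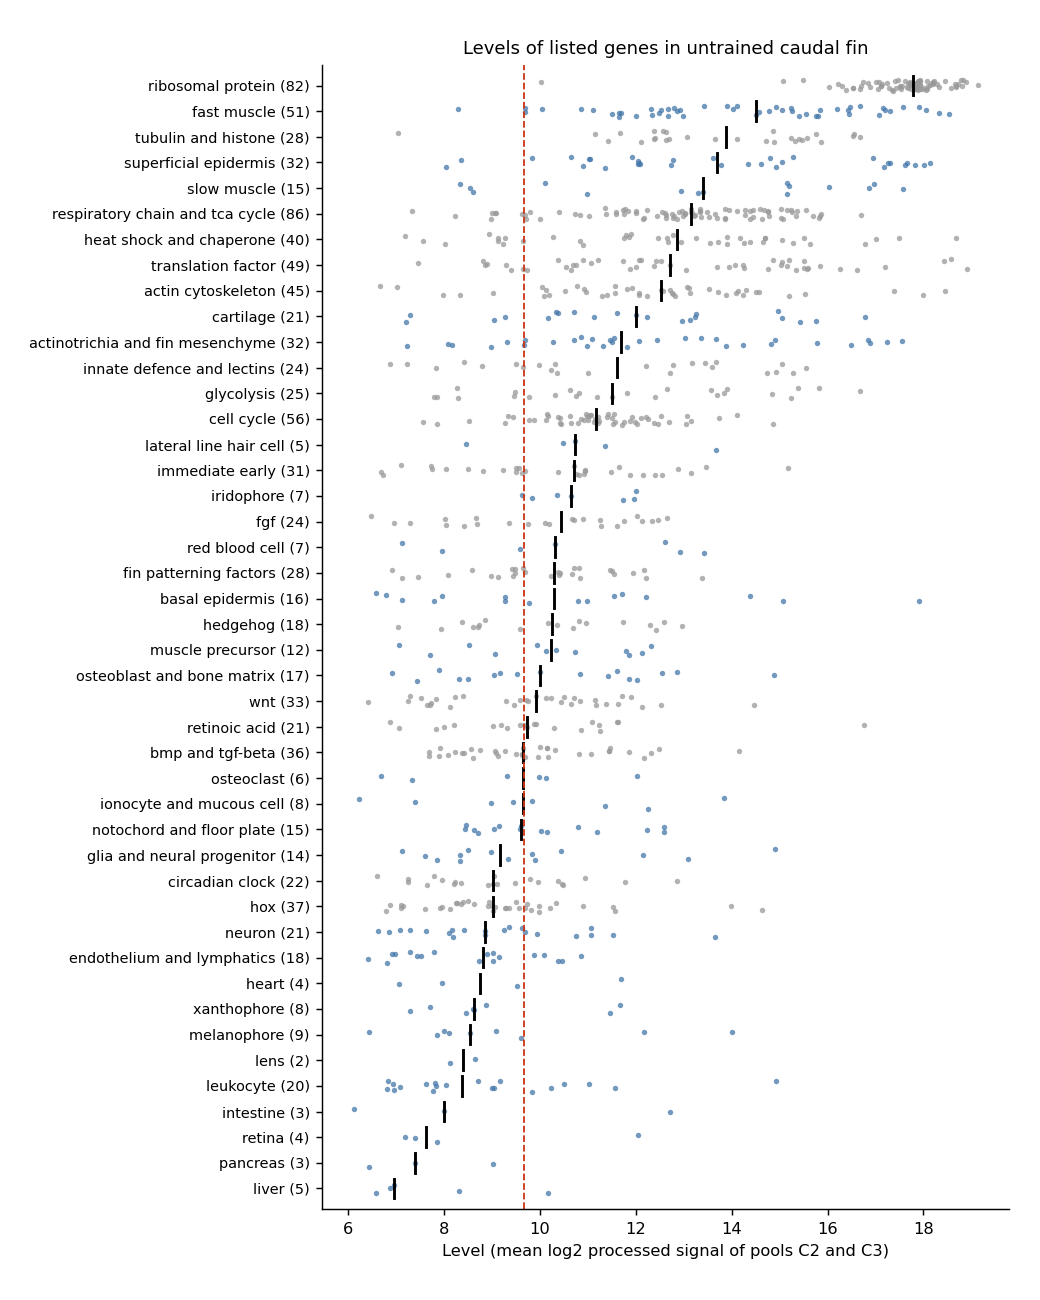
Levels of the genes of 44 lists that were well above background on all 6 arrays, with the number of such genes in brackets. Each point is a gene at its mean log2 processed signal over pools C2 and C3 (blue, tissue and cell type lists; grey, pathway and gene family lists), black bars are list medians, and the dashed line is the median of all 8842 ranked genes, 9.66. Ribosomal protein genes have the highest median, 17.77, followed by fast muscle at 14.51.

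The superficial epidermis was marked by keratins. In this list 32 of 35 genes passed, at a median level of 13.70, and 30 of them lay above the median of all ranked genes. The highest was krt91, a keratin, at 18.03 in C2 and 18.26 in C3 (18.15 ± 0.16). Its 6 arrays ran from 17.69 to 18.42, so the pools overlapped. The keratin krt5 stood at 17.88 and 18.15, again with C3 above C2 by less than the range of the arrays. Further keratins followed closely: cyt1l at 17.83 ± 0.07, krt92 at 17.66 ± 0.13 and krt4 at 17.60 ± 0.02. The ictacalcins icn2 and icn, calcium-binding S100 proteins of fish skin, lay at 17.26 ± 0.01 and 17.17 ± 0.07. Junction genes were lower, with the tight-junction protein cldn1 at 15.30 and 14.82 and E-cadherin (cdh1) at 12.75 and 12.71. The 3 genes that did not pass were krt93, krt95 and krt98, of which krt95 and krt98 were above background on no array.

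All 16 basal epidermis genes passed, at a lower median of 10.29. The basal keratin krt1-19e stood far above the rest of its list at 17.84 in C2 and 17.96 in C3. The claudin cldni followed at 15.16 and 14.97, and the keratin krt15 at 14.36 and 14.41. The epidermal stem cell factor tp63 read 11.96 and 12.49. The Fraser-complex genes, which anchor the epidermis of the fin fold to its basement membrane, spread widely, from fras1 at 10.98 ± 0.09 to frem3 at 6.58 ± 0.24. The hemidesmosome genes col17a1a and itgb4, which tie basal cells to the matrix, read 10.80 ± 0.30 and 9.77 ± 0.10.

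Actinotrichia genes, the defining markers of a fish fin fold, were all present. All 4 actinodin genes were well above background on all 6 arrays. The highest, and4, read 17.13 in C2 and 17.35 in C3 (17.24 ± 0.16), which put it among the 100 highest-ranked genes. Next came and2 at 16.50 and 16.49 and and1 at 15.68 and 15.86, while and3 was lower at 14.14 and 14.35. For and2 the pools were indistinguishable, and for the other 3 C3 was higher by at most 0.22. Type I collagen, the main collagen of fin mesenchyme and bone, was as high: col1a1b read 17.32 and 17.76, col1a2 16.85 and 16.94, and col1a1a 16.62 and 17.08. Of the whole mesenchyme list 32 of 35 genes passed, at a median of 11.68. The small matrix proteoglycan dcn (14.89 ± 0.11), the matrix protein postnb (14.81 ± 0.10) and the mesenchymal transcription factor prrx1a (13.03 ± 0.03) lay above that median. The genes that did not pass were prrx1b, on no array, and fbln1 and dpt, on 3 arrays each. The fin-fold tenascin tncb was the only member called apart between pools, at 12.62 in C2 and 11.52 in C3, and its other probe read 7.55 and 6.86.

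Bone markers were present at moderate levels. In the osteoblast list 17 of 20 genes passed (85.0%, against 68.5% of all genes), with a median of 10.00, near that of all ranked genes. The matrix protein sparc led at 15.07 in C2 and 14.70 in C3. It was followed by the collagen col10a1a at 12.62 and 13.12 and osteocalcin (bglap) at 12.38 and 12.74. The osteoblast transcription factors sp7 and runx2b were dim, at 9.18 ± 0.49 and 8.51 ± 0.40, and runx2a missed the rule on 1 array. The genes that did not pass included runx2a and bmp6. The osteoclast protease ctsk read 11.63 and 12.43, and 6 of 10 osteoclast genes passed.

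Cartilage genes passed in full, 21 of 21, and their median lay at the 84.4th percentile of ranked genes. The main cartilage collagen col2a1a read 17.14 in C2 and 16.43 in C3 (16.79 ± 0.50). The cartilage collagens col11a1a and col9a1b read 15.76 ± 0.38 and 15.42 ± 0.33, and the matrix protein matn1 15.06 and 15.04. The transcription factor sox9a stood well above its duplicate: sox9a read 11.41 and 10.87, sox9b 7.69 and 6.73, on different probes. C2 was the higher pool for 17 of the 21, whereas 49.9% of all ranked genes were higher in C3. In the notochord and floor plate list 15 of 16 passed. The ligand shha, made by notochord and floor plate and also by the fin ray epidermis, led at 12.80 and 12.40. The notochord matrix gene cmn and the caveolae gene cav1 followed at 12.59 ± 0.18 and 12.23 ± 0.20, and the notochord transcription factor tbxta read 10.19 and 9.85. The other notochord factor, noto, was above background on no array.

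Skeletal muscle was the other large tissue signal. Of the fast muscle list 51 of 54 genes passed, at a median of 14.51, and 34 of them lay in the top 10%. The sarcomeric actin actc1b read 18.25 in C2 and 18.80 in C3 (18.53 ± 0.39). The calcium buffer pvalb2 read 18.05 and 18.61, and the myosin heavy chain myhz1.1 17.96 and 18.15. The actc1b arrays did not overlap, with C2 between 17.88 and 18.51 and C3 at 18.70 and 18.91. Parvalbumins differed widely among themselves, with pvalb1 at 17.20 ± 0.03, pvalb4 at 15.54 ± 0.26 and pvalb3 at 11.12 ± 0.12. The myosin heavy chain myhc4 was higher in C2, at 16.82 against 15.58. In the slow muscle list 15 of 17 passed, led by the myosin light chains myl10 (17.60 and 17.55) and myl13 (16.92 and 17.04) and the slow myosin heavy chain smyhc3 (17.00 and 16.73). Muscle precursor genes were dimmer, with 12 of 18 passing (66.7%, near the 68.5% of all genes). The myogenic factors myog (10.74 ± 0.10), myf5 (10.34 ± 0.10) and myod1 (9.95 ± 0.09) lay near or slightly above the median of all ranked genes. The satellite cell gene pax7a read 7.49 and 7.94, and pax3a was above background on 2 arrays.

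Pigment cell lists passed at mixed rates, with 9 of 14 melanophore, 8 of 10 xanthophore and 7 of 13 iridophore genes. Over all genes with a symbol 68.5% passed. Among melanophore genes tyrp1b, an enzyme of melanin synthesis, read 13.97 in C2 and 14.06 in C3, and the melanosome protein pmela 12.12 and 12.21, while tyr, the first enzyme of that pathway, was above background on no array. The pteridine enzyme gch2, which xanthophores use, was at least 2-fold higher in C3 (10.90 in C2, 12.44 in C3). The iridophore genes that passed were led by purine synthesis enzymes that all dividing cells use: gart (11.72 and 12.28), paics (11.72 and 12.21) and impdh1b (11.71 and 11.76). The more specific iridophore gene pnp4a was above background on 1 array and ltk, a kinase of iridophore precursors, on 2, and neither passed. In bulk RNA, fewer cells of a type and less RNA per cell cannot be told apart.

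Vessel genes were mostly dim, and most red blood cell genes did not pass, whereas 68.5% of all genes with a symbol did. In the endothelial list 18 of 23 genes passed with a median of 8.81, led by fli1, an endothelial transcription factor, at 10.75 and 10.98, and the fenestral diaphragm genes plvapa (10.46 ± 0.56) and plvapb (10.38 ± 0.10). The widely used endothelial markers kdrl and cdh5 were above background on 2 arrays and 1 array. Of 19 red blood cell genes 7 passed, at a median of 10.32, and 4 of the 7 lay above the median of all ranked genes. The globin hbae1.1 read 13.00 in C2 and 13.83 in C3, hbae3 12.92 and 12.93, and hbbe2 12.73 and 12.47. The first was higher in C3 on every array, hbae3 was level, and hbbe2 was slightly lower in C3 in both dyes. The adult globin hbba2 read only 7.45 and 8.47, and hbbe3, hbaa2 and hbba1 did not pass, on 5, 2 and 0 arrays. The heme enzyme alas2 read only 7.25 and 7.03. Among leukocyte genes 20 of 32 passed with a median of 8.38. The highest, apoeb (14.92 ± 0.16), is an apolipoprotein gene also made outside leukocytes. On brightest probes it was followed by the cytokine receptor gene il7r (11.57 ± 0.45) and the granulin grna.2 (11.03 ± 0.19). The probes of il7r disagreed: the brightest read 11.89 in C2 and 11.25 in C3, the other kept probe 9.01 and 9.42. A further il7r probe, above background on 1 array, read 4.40 and 3.70. On its brightest probe the Cy3 arrays read 10.73 to 11.60 and the Cy5 arrays 11.77 to 12.58. The actin regulators coro1a and lcp1, found in most leukocytes, read 10.50 ± 0.05 and 10.23 ± 0.36. The neutrophil genes lyz and mpx missed the rule, on 4 and 3 arrays above background, and the macrophage gene mpeg1.1 was 2-fold higher in C2 (8.19 against 7.06).

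Neural genes were widely detected and dim. In the neuron list 21 of 23 passed (91.3%, against 68.5% of all genes) with a median of 8.86. The tubulin tubb5 led at 13.83 in C2 and 13.49 in C3. The GABA-synthesis gene gad2 read 12.07 and 10.98 on its brightest probe, but its other probes ran from 10.18 down to 3.34. The growth-cone gene stmn2b read 11.39 and 10.76, and the pan-neuronal RNA-binding genes elavl4 and elavl3 9.70 ± 0.76 and 7.62 ± 0.91, both at least 2-fold higher in C2. In the glia and neural progenitor list 14 of 16 passed, led by the fatty-acid-binding gene fabp7a (14.76 and 15.03), the astroglial filament gene gfap (13.28 and 12.88) and the glutamate transporter slc1a2b (12.45 and 11.84). Of 12 lateral line hair cell genes 5 passed. The parvalbumin pvalb8 (13.81 and 13.54), s100t (11.13 and 11.61), six1a (11.07 and 10.41), eya1 (10.75 and 10.24) and the hair cell factor atoh1a (8.24 and 8.67) did, whereas the synaptic gene otofa was above background on no array. Of 19 ionocyte and mucous cell genes 8 passed, led by the sodium pump atp1a1a.1 (13.59 and 14.08), the proton pump subunit atp6v1aa (12.21 and 12.32) and the carbonic anhydrase ca2 (11.30 and 11.43). The ionocyte factors foxi3a and foxi3b were above background on 2 arrays and none.

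Markers of organs outside the fin were mostly below the detection rule. Over liver, pancreas, intestine, retina, lens and heart 21 of 107 genes passed (19.6%, against 68.5% of all genes), and none of the 21 lay in the top 10% of ranked genes. Over the epidermis, fin mesenchyme, skeleton and muscle lists the figure was 183 of 197 (92.9%), with 90 in the top 10%. This leaves out the muscle precursor and osteoclast lists, of which 12 of 18 and 6 of 10 passed with 0 in the top 10%. Pigment cell, vessel, blood, leukocyte, hair cell and ionocyte lists passed at 36.8% (red blood cell) to 80.0% (xanthophore), the lowest near heart at 36.4%. The neuron and glia lists passed at 91.3% and 87.5%. The plot of detection by tissue list shows these shares.

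**Figure D2:**
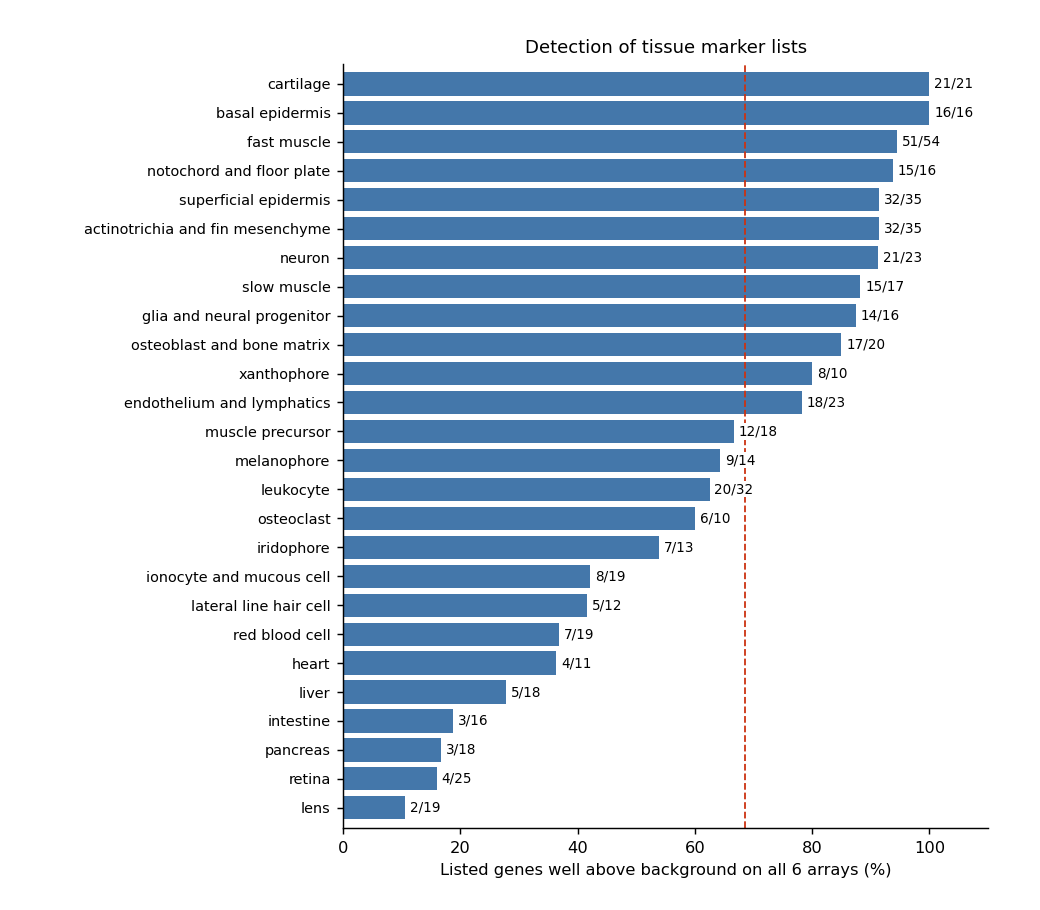
Share of the genes of 26 tissue and cell type lists that were well above background in the control channel on all 6 arrays, in percent. Numbers give genes passed over genes on the array, and the dashed line is the share over all 12900 genes with a symbol, 68.5%. The lens, retina, pancreas, intestine and liver lists lie lowest, between 10.5% and 27.8%.

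The exceptions were few and some rested on a single probe. In the liver list the passing genes were serpina1l (10.17 ± 0.20), vtg5, hpda, apoa1a and fabp10a, in the pancreas list they included prss1 (9.03 ± 0.28) and prss59.1, and in the intestine list they were lgals2a, foxa3 and fabp2. The 6 arrays of serpina1l ran from 9.18 to 11.05, far wider than its SD over pools. The galectin lgals2a was the brightest at 12.43 in C2 and 12.99 in C3. The yolk protein gene vtg5 read 8.28 and 8.37 on the only probe that passed, and the next of its probes read 5.97 and 6.11. The UV cone opsin opn1sw1, a retinal gene, read 11.81 and 12.29, while its other probe read 3.68 and 3.62 and was above background on no array. The rod opsin rho (7.85 ± 0.29), pax6a (7.39 ± 0.57) and rbp4l (7.19 ± 0.59) were the other retinal genes that passed, and cryba4 (8.65 ± 0.25) and mipb (8.13 ± 0.43) the lens genes. The heart list had myh7 (11.92 and 11.47), myl4 (8.77 and 10.29), tnnt2a (7.96 ± 0.14) and gata4 (7.06 ± 0.34), and the cardiac myosin genes myh6 and myl7 did not pass. A level from the brightest probe is therefore an upper reading for genes whose probes disagree.

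Hox genes record position along the body axis, with the genes of high paralog number expressed most posteriorly. In the fin 37 of 47 passed (78.7%, against 68.5% of all genes), and their levels differed by paralog number. Of groups 9 to 13, 20 of 21 passed at a median of 9.77, with hoxa11a the exception. Of groups 1 to 8, 17 of 26 passed at a median of 8.25. Group 13 held the 2 highest members: hoxc13a read 14.74 in C2 and 14.52 in C3, and hoxb13a 14.28 and 13.71. Next to them hoxc13b read 11.38 and 11.68. The remaining members of that group were lower, with hoxa13a at 9.99 ± 0.55, hoxa13b at 9.69 ± 0.21 and hoxd13a at 8.27 ± 0.10. Outside group 13 the highest were hoxb10a (11.66 and 11.46) and hoxc9a (11.46 and 10.34), followed by hoxc12a (9.95 and 10.72) and hoxa11b (10.61 and 9.80). The highest of groups 1 to 8 were hoxb8a (9.94 and 9.20) and hoxa4a (9.89 and 9.11). The lowest Hox gene that passed was hoxa5a at 7.30 and 6.29. C2 was higher than C3 for 33 of the 37, and at least 2-fold higher for 4. Those were hoxc6a (9.18 against 7.08), hoxb3a (9.84 against 8.02), hoxc6b (9.74 against 8.25) and hoxc9a. Over all ranked genes 49.9% were higher in C3, and 3.18% were at least 2-fold higher in C2.

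**Figure D3:**
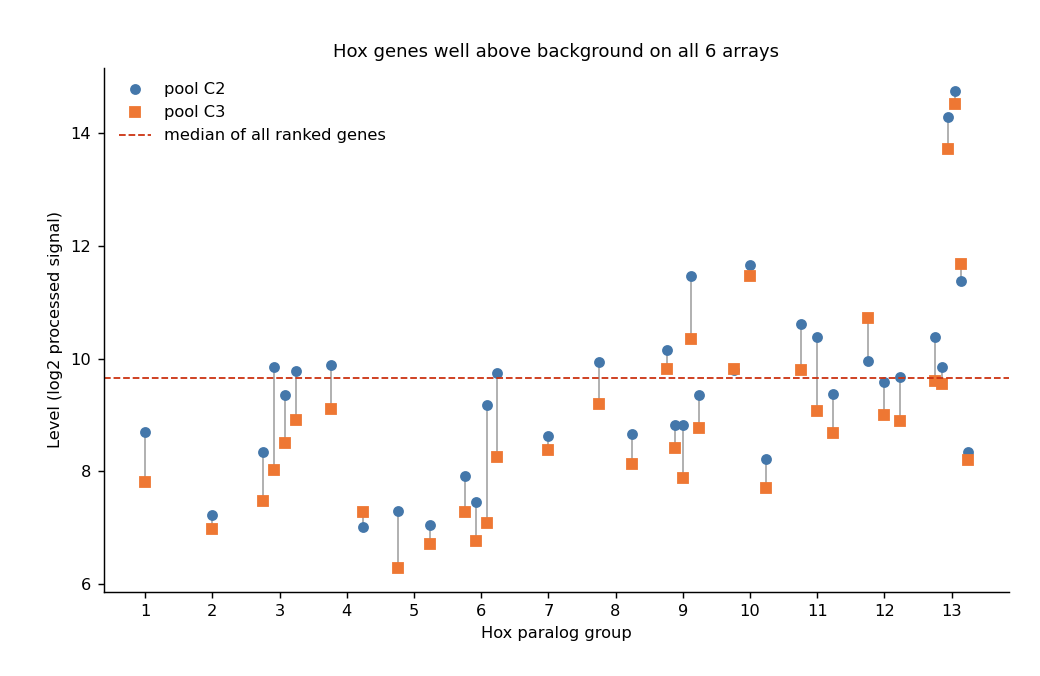
Levels of the 37 Hox genes that passed, by paralog group, in pool C2 (circles) and pool C3 (squares), as log2 processed signal. Lines join the pools of a gene and the dashed line is the median of all ranked genes, 9.66. Group 13 holds the highest genes, hoxc13a at 14.63 and hoxb13a at 14.00, and C2 lies above C3 for 33 of 37 genes. Of all ranked genes 49.9% were higher in C3.

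Genes that pattern fins were present around the middle of the ranking. Of 35 patterning factors 28 passed (80.0%, against 68.5% of all genes). They were led by the epidermal homeobox gene dlx3b (13.21 in C2 and 13.54 in C3), tp63 and zic1 (12.32 and 12.01). The limb and pelvic fin factors tbx4 and pitx1 were above background on 2 arrays and none. In the hedgehog pathway 18 of 21 passed. Beside shha, the membrane co-receptor gas1a read 13.09 and 12.82, and hhatla 12.76 and 12.09. The transcription factor gli2a read 12.30 ± 0.03, the receptor-side gene smo 10.36 ± 0.17, and the genes that did not pass included dhh and gli1. In the Fgf pathway 24 of 30 passed. The highest receptors and targets lay above the ligands: fgfr2 read 12.65 ± 0.63, fgfr3 12.71 and 11.96, and the feedback phosphatase dusp6 12.47 ± 0.37, whereas the highest ligand, fgf16, read 9.36 ± 0.44. For fgfr2 the dimmest of 6 kept probes read 7.49.

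In the Wnt pathway 33 of 44 passed, led by beta-catenin (ctnnb1, 14.76 in C2 and 14.16 in C3), the receptor fzd2 (12.46 and 12.58) and the ligand wnt11 (12.32 and 11.94). The pathway target axin2 read 12.02 and 11.26. The receptor gene fzd8a rests on 5 arrays, because its spot on 1 Cy3 array of C2 was marked as non-uniform and left out. It read 10.23 and 10.23 without that spot. In the Bmp and Tgf-beta list 36 of 43 passed. The Bmp target genes id1 (13.96 and 14.35), id2a (12.70 and 12.26) and id3 (12.58 and 12.06) led, above the highest ligand, bmp3 (12.48 and 11.88). Of 25 retinoic acid genes 21 passed. The retinol carrier rbp4 stood far above the rest at 17.00 and 16.54, and its other probe was also bright at 14.70 and 14.83. The retinoic acid binding gene crabp2a read 11.76 and 11.49, the synthesis enzyme aldh1a2 11.66 and 11.56, and the degrading enzyme cyp26a1 was at least 2-fold higher in C3 (7.43 in C2, 9.01 in C3).

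General cell functions filled much of the upper ranking. Of the respiratory chain and TCA cycle genes 86 of 89 passed at a median of 13.15, led by the ATP synthase subunit atp5f1b (16.69 ± 0.25), the dehydrogenase idh2 (15.87 ± 0.07) and the ATP synthase subunit atp5mc3b (15.83 ± 0.28). The 3 that did not pass were ndufa12, ndufs8b and dldh. In glycolysis 25 of 27 passed, led by the muscle enolase eno3 (16.68 ± 0.25), gapdh (15.82 ± 0.29) and gapdhs (15.39 ± 0.27), and pfkmb and aldoca did not. In the chaperone list 40 of 44 passed, with the cyclophilin ppiaa (17.49 ± 0.02) and the constitutive Hsp70 gene hspa8 (17.01 ± 0.14) next to hsp90ab1. The stress-inducible genes hsp70.3 and hsp70l were above background on 4 and 3 arrays and did not pass. The cytoskeletal actins actb2 (18.31 and 18.58) and actb1 (17.87 and 18.12) and the thymosin tmsb4x (17.40 and 17.37) led the actin list, in which 45 of 47 passed.

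Genes of dividing cells were widely detected in the fin at 10 dpf. Of 58 cell cycle genes 56 passed at a median of 11.18, and 50 of the 56 lay above the median of all ranked genes. The histone variant h2az2b read 14.65 in C2 and 15.07 in C3, the chromatin protein hmgb2b 14.14 and 14.09, and the replicative helicase subunit mcm7 13.13 and 14.34. The mitotic kinase cdk1 read 11.75 ± 0.05. Among immediate early genes 31 of 35 passed: the antiproliferative gene btg1 led at 15.35 and 15.00, followed by the matricellular gene ccn2a (13.65 and 13.28) and the flow-responsive factor klf2a (13.56 and 12.74). In the innate defence and lectin list 24 of 41 passed (58.5%, against 68.5% of all genes). Its highest member, the interferon-induced gene mxc, read 16.11 and 15.01 on a probe that passed, while its other probes read 6.55 and 4.99, and 3.99 and 4.22, in C2 and C3. The ferritin genes fth1a (15.29 ± 0.10) and fthl27 (15.06 ± 0.21) came next.

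Some of the highest-ranked genes are neighbours in the genome. In the GRCz12tu annotation 11 of the 100 highest-ranked genes lie next to another of them, in 6 adjacent pairs. No such count was made for other sets of 100 ranked genes, so whether 11 is unusual was not tested. The pairs are icn with icn2, krt1-19e with krt92, krt92 with cyt1l, krt17 with krt91, nme2b.2 with nme2b.1, and rplp2 with rps26l. Neighbours of a family are also near in sequence, and cross-binding of their probes was not tested.

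The pools gave nearly the same ranking but differed in particular genes. For 89.7% of genes they lay under 2-fold apart in the mean, and the SD of C3 minus C2 over genes was 0.62, against 0.26 in Cy3 and 0.39 in Cy5 between the repeat and the earlier array of C2. In both dye orientations 425 genes (4.81%) were at least 2-fold higher in C3 and 281 (3.18%) at least 2-fold higher in C2, and 4 differed 2-fold in opposite ways. The same measure between the repeat and the earlier arrays of C2 gave 37 genes. These share their RNA but lie on slide 2 and slide 1, so hybridisation and slide cannot be told apart there. Single arrays are compared in it, whereas the calls between pools average the C2 arrays of each dye. Of the 706 calls 60.2% were higher in C3, and this split depends on scaling: with channels centred on their medians it was 81.0% (570 in C3, 134 in C2), as the median of all genes then moved to 0.19. With normexp background correction 246 genes were called, within slide 1 (Cy3) 951, within slide 2 (Cy5) 1243, and at a threshold of 1.5-fold 2052. Within a slide a gene had to differ in 1 dye orientation only, a looser rule than that behind the 706 calls. Within slide 2 the only C2 array in Cy5 was the repeat array that stood apart in the spread of its signals. With that array left out and both dyes used, 677 genes were called. Pool and slide are partly crossed, since C2 lies on both slides and C3 in Cy3 on the first and in Cy5 on the second.

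**Figure D4:**
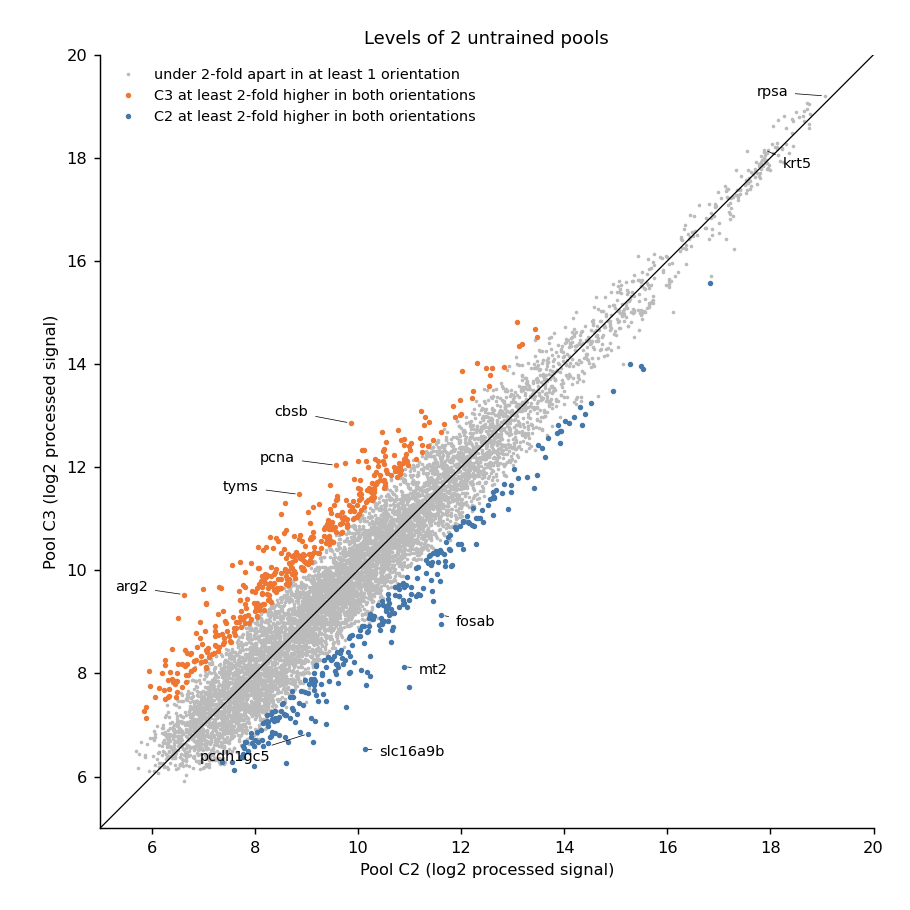
Level of each of the 8842 ranked genes in pool C2 (x axis) and pool C3 (y axis), as log2 processed signal. Orange points are the 425 genes at least 2-fold higher in C3 in both dye orientations, blue points the 281 at least 2-fold higher in C2, grey points the rest, and the line marks equal levels. The highest-ranked genes lie close to the line and the coloured genes lie mostly below a level of 14.

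The genes most above C2 in pool C3 included enzymes of amino acid and nucleotide metabolism and replication genes. The cysteine synthesis enzyme cbsb read 9.99, 9.84, 9.85 and 9.75 on the C2 arrays and 12.90 and 12.81 on the C3 arrays, a 7.99-fold difference. The arrays of the pools did not overlap. The arginase arg2 read 6.62 and 9.53 in C2 and C3, the threonyl-tRNA synthetase tars1 8.59 and 11.31, and the replication fork gene wdhd1 6.99 and 9.63. Thymidylate synthase (tyms) read 8.85 and 11.47, the hexokinase hk2 6.50 and 9.08, and the clock-linked repressor bhlhe40 8.52 and 11.08. The 10 largest differences also included pcna, the sliding clamp of DNA replication (2.46), and the chaperone hspa4a (2.46), as log2 C3 minus C2. The C2 levels of arg2, hk2 and wdhd1 lie near the detection limit, which makes the size of their differences less certain. Probes well above background on 5 arrays had a median level of 6.49.

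The genes most above C3 in pool C2 were mixed. The transporter gene slc16a9b read 10.24, 10.14, 10.18 and 9.96 on the C2 arrays and 6.25 and 6.82 on the C3 arrays, a log2 difference of -3.60 for C3 minus C2. It was the widest gap between pools among the ranked genes called apart. The dehydrogenase gene dhrs13a.3 read 10.99 and 7.74, the metallothionein mt2, which binds zinc and copper, 10.89 and 8.13, and the arrestin-domain gene arrdc3b 11.61 and 8.96. The immediate early transcription factor fosab read 11.62 and 9.13. The remaining members of the 10 were plekhs1.3 (-2.47), the hyaluronan link protein hapln3 (-2.38), the interferon regulatory factor irf1a (-2.36) and the clustered protocadherins pcdh2g29 (-2.29) and pcdh1gc5 (-2.20). The C3 levels of slc16a9b (6.53), plekhs1.3 (6.66) and pcdh1gc5 (6.83) lie near the detection limit, so the size of their differences is less certain.

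Several lists differed between pools. Over all ranked genes 49.9% were higher in C3 and the median C3 minus C2 was -0.0026, and list medians below are relative to it. At least 2-fold higher were 4.81% of all ranked genes in C3 and 3.18% in C2. In the cell cycle list 37 of 56 genes were higher in C3 and 19 in C2, with a list median of 0.36. At least 2-fold higher were 21 in C3 and 1 in C2. The gene at least 2-fold higher in C2 was cdc20, which drives exit from mitosis (10.03 in C2 against 8.84 in C3). A fuller list of replication fork genes was drawn up after values were seen, and it shares mcm7 with the cell cycle list. Genes listed in this way may have been picked for their difference, so their counts and medians are no test of one. The replication fork list had 29 of 33 at least 2-fold higher in C3 and a median of 1.64. Among them mcm4 read 9.74 and 12.08, rpa2 8.21 and 10.44, and dut, which clears dUTP, 10.08 and 12.34. A ribosome biogenesis list drawn up in the same way had 29 of 47 at least 2-fold higher in C3 and a median of 1.18, with the nucleolar genes fbl at 10.01 and 12.11 and npm1a at 11.23 and 13.09. The aminoacyl-tRNA synthetases, also listed afterwards, were higher in C3 in 13 of 13, at least 2-fold in 4, with a median of 0.87. The ribosomal protein genes themselves did not share this, with 0 of 82 at least 2-fold apart and a median of -0.03, which was -0.22 under normexp, -0.13 under quantile normalisation and 0.08 within slide 1.

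Neuron, Hox, cartilage, notochord and immediate early lists lay the other way. Neuron genes were higher in C2 in 20 of 21, at least 2-fold in 2, with a median of -0.71. Of all ranked genes 3.18% were at least 2-fold higher in C2. Hox genes had a median of -0.62, cartilage genes -0.46, notochord genes -0.39 and immediate early genes -0.37. The clustered protocadherins, cell adhesion proteins best known from neurons and listed after values were seen, were higher in C2 in 16 of 16, at least 2-fold in 12, with a median of -1.56. The highest of them, pcdh2ac, read 11.36 in C2 and 10.15 in C3. The glia and neural progenitor list was weaker, at -0.19 (-0.05 under normexp), with 8 of 14 genes higher in C2. The osteoblast list did not share the direction of cartilage, at 0.14 with 9 of 17 genes higher in C3. Superficial epidermis, basal epidermis and mesenchyme lists lay near 0, at 0.06, -0.03 and 0.12. The xanthophore list had a median of 0.51. The iridophore list had one of 0.57, but its passing members are mainly the purine synthesis enzymes named above and not the more specific pnp4a and ltk. Each of these medians kept its sign within slide 1 and within slide 2, except those of the ribosomal protein and osteoblast lists. The osteoblast median was -0.08 within slide 1 and 0.19 within slide 2. Normexp correction gave smaller medians for the protocadherin (-0.88), neuron (-0.41), Hox (-0.34), immediate early (-0.16) and xanthophore (0.29) lists, with the same sign, and turned that of the superficial epidermis to -0.01. Neuron, notochord and cartilage markers were higher in the same pool as the protocadherins and Hox genes, and their part in those differences was not tested. The labels give nothing that separates the pools, so the fish, the dissection and the extraction cannot be told apart.

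**Figure D5:**
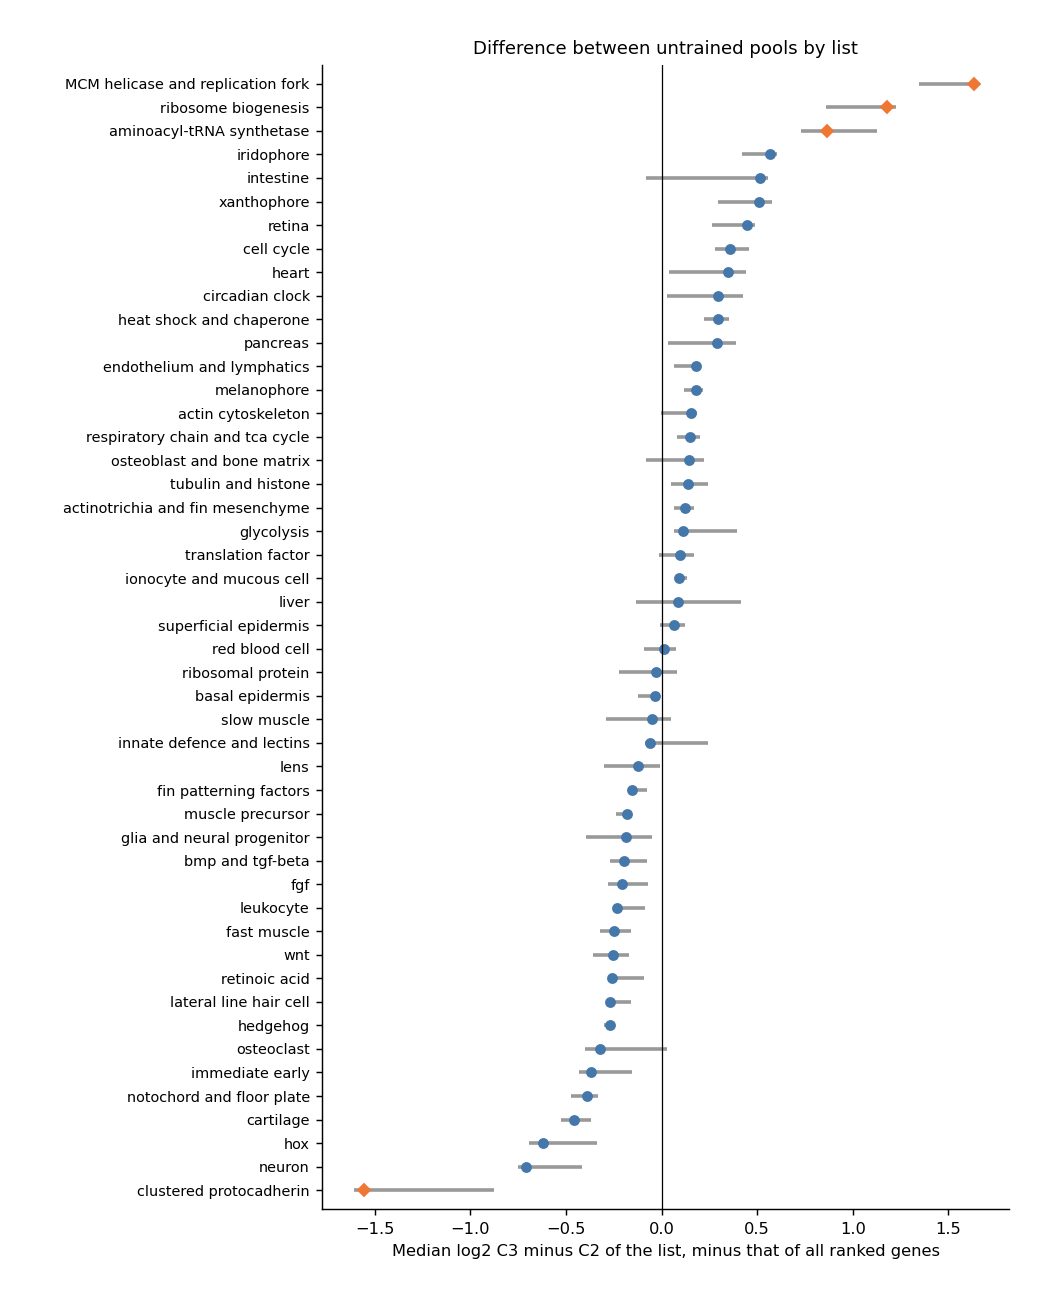
Median log2 C3 minus C2 of the genes of each list that passed, minus the median of all ranked genes. Points are the values as reported (circles, 44 lists; orange diamonds, 4 lists drawn up after values were seen) and grey bars span the values under the other settings tried. Replication fork genes lie highest, at 1.64, and clustered protocadherins lowest, at -1.56, and both lists were drawn up after values were seen. Among the 44 lists iridophore lies highest, at 0.57, and neuron lowest, at -0.71.

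The deposited signals are dye-normalised, so the dyes were compared after that step. On these signals the dye mattered little for the ranking. Rankings from Cy3 arrays only and Cy5 arrays only shared 96 and 100 of the 100 highest-ranked genes. No gene of the 8842 (0%) was at least 2-fold apart between Cy3 and Cy5 the same way in all 3 array pairs of the same control RNA. With normexp background correction of the median signal 8 genes were. In the separate pairs the count was 18 for the earlier C2 arrays, 182 for the C2 repeat and 156 for C3. Each C2 pair lies on 1 slide, whereas the C3 pair has Cy3 on slide 1 and Cy5 on slide 2. In C3 dye and slide therefore cannot be told apart. The largest mean difference belonged to ipp, at 6.55 in Cy3 and 7.34 in Cy5 on slide 1 and 8.54 and 10.10 on slide 2 for the same C2 RNA. For ipp and for plekhm2, at 6.54 and 7.38 on slide 1 and 8.05 and 8.34 on slide 2, the gap between slides exceeded the gap between dyes. In C3, where the dyes lie on different slides, ipp read 7.05 in Cy3 and 9.58 in Cy5. The other genes on the Cy5 side were hoxd4a (Cy3 minus Cy5 of -1.34), sh3glb2a (-1.34) and plppr5b (-1.30). The sh3glb2a value rests on the C2 Cy5 repeat array, at 10.94 against 5.75 to 7.66 on the others, and hoxd4a lay the other way in the earlier C2 pair (6.66 in Cy3, 6.52 in Cy5). In the mean over pools, cfap20dc (0.95), acap1 (0.93), hipk3b (0.92), gfra1a (0.81) and lama1 (0.81) lay on the Cy3 side. Of these only acap1 and lama1 had Cy3 above Cy5 in all 3 pairs. In both C2 pairs gfra1a was lower in Cy3 (8.09 and 8.22 on slide 1, 6.99 and 7.21 on slide 2). Its value rests on the C3 pair, at 8.97 in Cy3 and 7.17 in Cy5. Cy3 was also the lower dye for cfap20dc in the earlier C2 pair (8.22 and 8.30) and for hipk3b in the C2 repeat (7.70 and 8.97). Among the lowest-ranked genes, nme2a (6.03 ± 0.12) and mri1 (5.95 ± 0.30) sat at the detection limit.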

How the data were processed

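The files hold 1 array each, scanned and quantified with Agilent Feature Extraction 10.5.1.1 per the submitters' processing notes. Per the file headers, the deposited values are dye-normalised processed signals, that is, intensity on a linear scale after background subtraction. The deposited table of authors' log ratios was not used. For each array the control channel was taken from the dye the labels give, control spots and spots marked as outliers were left out, each channel was scaled to a common 75th percentile and log2 was taken of the deposited intensity. Dye orientations were averaged within pools, then pools, so that the 4 arrays of C2 and the 2 of C3 each count as 1 sample. A gene's level is that of its brightest kept probe. Symbols came from a RefSeq table (GRCz12tu) matched by accession: 25173 of 43603 probes matched, to 12900 symbols. Coordinates were not used beyond the order of neighbouring genes, and sequences were not used. Python 3.11.15 with pandas 2.3.3, numpy 2.4.6 and matplotlib 3.10.9 was used, and normexp (offset 50) came from limma 3.58.1 in R 4.3.3. The ranking and the calls were tested on simulated data.

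The members and gene lists were chosen with earlier results of these data known. The lists of replication fork, ribosome biogenesis, aminoacyl-tRNA synthetase and clustered protocadherin genes were drawn up after values were seen. Named by rule were the 30 highest-ranked genes, the 20 highest outside translation, the 3 highest of each list, the 10 largest pool differences and 5 largest dye differences in each direction, the Hox genes and the 3 lowest; other named genes were chosen after their values were seen. A few genes that the rule names are not reported here. The number of arrays limits the precision. Alternatives covered the background correction, the scaling, the detection rule, the probe summary, the dyes, the slides and the arrays left out.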

Additional observations from a re-analysis of the deposited data

Results flagged for a closer look

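The Cy5 repeat array of pool C2 stood outside the other 5 control channels in the shape of its signal distribution. Its 75th percentile lay 1.81 above its median on the log2 scale, against 2.25 to 2.35 on the others, and its gap to them relative to the whole range passed Dixon's 95% critical value for 6 values. For independent values chance gives about 1 such value in 20 groups. These arrays share RNA and slides, so that rate need not hold here. The same array had the largest share of probes well above background, 79.8%, followed by the Cy3 repeat array of C2 at 73.1%. The remaining arrays lay between 55.6% and 62.2%.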

How the results depend on the processing

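The number of genes that passed stayed between 8844 and 10537 under the other detection rules and array sets. It was 9038 without pool C2 and 9462 without pool C3. Of the 100 highest-ranked genes 80 were shared with a ranking by the mean of a gene's kept probes and 94 to 100 under the other alternatives, and 94 to 99 when either pool was left out. The number of lists with a median above that of all genes was 26 to 28. Of the 706 genes called apart between pools, the count was 246 (132 higher in C3, 114 in C2) with normexp background correction, 1243 (684 and 559) within slide 2 and 2052 (1053 and 999) at 1.5-fold. Within slide 1 it was 951, and it lay between 672 and 1048 under the remaining settings. Within a slide fewer arrays enter the values and a gene had to be 2-fold apart in 1 dye orientation only. Within slide 2 the C2 side was the flagged Cy5 repeat array alone. The cause of the lower count under normexp was not tested. Genes called apart between dyes numbered 8 with normexp and 29 with no filter on detection, against 0. Genes of organs outside the fin that passed numbered 47, against 21, when any signal significantly above background was accepted. Of the recomputed pool differences of named genes called apart, 336 kept their direction and size class, 16 fell short of 2-fold and 0 changed sign. These genes include the 10 largest differences in each direction, so this is no measure of how stable the 706 calls are. The percentile of fgfr2 shifted most, by 40.3 points, with the mean of its probes. For the pools, dyes and list levels normexp on the median signal took the place of the planned normexp on the mean signal, which was not used here. That replacement and the alternatives without the Cy5 repeat array, at 1.5-fold and with marked spots kept were chosen after seeing the data. Planned summaries of protein lengths and promoter motifs were not run. No paired analysis was possible because both pools belong to the same group and no result compares groups. Weak probes limit the ranking at its lower end, where levels lie near the detection limit.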

Other observations

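Circadian clock genes were around the middle of the ranking, at a median level of 9.03. Well above background on all 6 arrays were 22 of 34 (64.7%, near the 68.5% of all genes). The period gene per1a led at 12.73 in C2 and 12.97 in C3, followed by the clock activator bmal1a at 11.79 ± 0.31 (SD over 2 pools) and the cryptochrome cry3a at 11.81 and 10.09. For per1a the slides differed more than the pools, with arrays at 11.83 to 12.53 on slide 1 and 13.26 to 13.41 on slide 2. Its C3 minus C2 was -0.36 in Cy3 and 0.83 in Cy5. Of the 22 genes 3 were at least 2-fold higher in C3, among them bhlhe40 and the nuclear receptor rorab (8.64 and 10.31). Another 2 were at least 2-fold higher in C2, among them cry3a. Over all ranked genes the shares were 4.81% higher in C3 and 3.18% higher in C2.

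All 28 tubulin and histone list genes passed, at a median level of 13.89. The highest were the tubulin tuba8l4 (16.67 ± 0.32), the nucleosome-binding gene hmgn2 (16.56 ± 0.04) and the tubulin tuba5 (16.52 ± 0.06).

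Of the 100 brightest kept probes 14 had no symbol in the reference table, against 30.8% of all kept probes, so the ranking by gene leaves out some bright probes. A few spots that the scanner software marked as outliers were far brighter than the same probe elsewhere. For cyp1c2 the marked spot read 17.00 and the other 5 arrays 8.27 to 9.33, for clic4 17.50 and 12.03 to 12.22, for calcoco2 15.51 and 8.89 to 9.31, and for the chemokine ccl19a.1 12.63 and 7.20 to 7.48. These spots were left out of the levels, and the genes were chosen after their values were seen.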
